A study of Saccharomyces cerevisiae with 21 samples.

Results

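The ribosome assembly factor genes described here were 70 of the 5823 genes in the deposited full-gene count table of budding yeast (Saccharomyces cerevisiae). They were chosen by name, as every gene whose symbol is NOP, UTP, RRP, NOC, RLP, NSA or RIX followed by a number, together with NSR1, CBF5, GAR1, NHP2, EBP2, MPP10, IMP3 and IMP4. The rule reads symbols only, but the choice was made with earlier results of these data known. RNA was sequenced from 7 strains with 3 libraries each. Changes in SPT6 were carried by spt6-R and by spt6-KK, and the double mutant spt6-R,KK combined them. Changes in RPB1 were carried by rpb1-TPY and by rpb1-FSP, and the double mutant rpb1-TPY,FSP combined those. The seventh strain was a wild type (WT). The histone chaperone Spt6 travels with elongating polymerase, and Rpb1 is the largest subunit of RNA polymerase II, to which the tandem SH2 domain of Spt6 binds. All strains were in log-phase growth in rich medium at 30 °C. Which residues the strain names stand for is not given in the labels. They give 1 strain code for the 3 libraries of each genotype, so each genotype is seen in 1 isolate, and they do not say that the libraries came from separate cultures. The p-values therefore measure only the spread between these libraries.

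Ribosomal RNA is transcribed in the nucleolus as a long precursor, and assembly factors fold, modify, cut and export it as ribosomal proteins join. Small nucleolar ribonucleoproteins (snoRNPs) of the C/D kind methylate the precursor and those of the H/ACA kind convert uridines to pseudouridines. The small-subunit processome, built from the UTP-A, UTP-B, UTP-C and Mpp10 modules and many single proteins, gathers on the nascent precursor, other factors mature the large subunit, and the RNA exosome trims the ends of the pieces. In yeast the genes for these factors are known to rise and fall together with growth rate and nutrients.

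By textbook role the 70 genes comprised 3 C/D snoRNP proteins (NOP1, NOP56, NOP58), 4 H/ACA snoRNP proteins (CBF5, GAR1, NHP2, NOP10), 6 UTP-A, 4 UTP-B, 2 UTP-C and 3 Mpp10 complex subunits, 18 further small-subunit factors, 23 large-subunit factors and 7 exosome subunits. The snoRNP genes below are the 7 core protein genes named here, and RRP9, a protein particular to the U3 snoRNP, is counted with the further small-subunit factors. All 70 passed the filter on low counts, as did 5618 genes in all. Their counts ran from 27 to 7430 reads per library, in libraries of 4860861 to 7803152 counted reads. None of the 70 has an intron or overlaps another annotated gene in the R64 annotation. Levels below are CPM, read counts relative to the library total after TMM scaling, and differences are log2 fold changes of the strain named first over the strain named next, with the standard error (SE) of the edgeR contrast. A gene was called higher or lower when its Benjamini-Hochberg adjusted p from edgeR's quasi-likelihood test, over all 5618 genes, was under 0.05. In bulk RNA, fewer cells of a kind and less RNA per cell cannot be told apart, and all levels are relative to the rest of the RNA in the library.

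Some facts of the libraries touch the comparisons. SPT6 itself averaged 143 ± 6.60 CPM in spt6-R, 192 ± 34.3 in spt6-KK and 130 ± 9.15 in spt6-R,KK, against 266 ± 30.1 CPM in WT (SD, n = 3 each). It was called lower in spt6-R, spt6-R,KK and rpb1-TPY,FSP, and its part in the results below was not tested. RPO21, the gene for Rpb1, was called in no mutant. Genes of a cells were expressed in every library, with a summed level of 6 markers of 1385 to 3629 CPM, while 3 alpha-cell markers summed to 20.6 to 106 CPM. WT library 1 stood below the other WT libraries for the assembly genes: the median of the 70 genes was at -0.26 on the log2 scale against the WT mean there, 0.07 in WT library 2 and 0.17 in WT library 3. On the same scale rpb1-TPY,FSP library 1 stood at -0.09, above libraries 2 and 3 of that strain at -0.45 and -0.43. Library 1 of spt6-KK stood at -0.27, below libraries 2 and 3 at 0.05 and 0.04. For the counts over all 70 genes against WT, the libraries that decide them are therefore given below. Counts by role and most calls of single genes are given without them.

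The promoters of the 70 genes share short words that the choice by name did not use. A pair of motifs is known from the promoters of yeast ribosome assembly genes: the PAC motif, bound by the repressors Dot6 and Tod6, and the ribosomal RNA processing element (RRPE), bound by Stb3. The PAC core was searched as GATGAG and the RRPE core as AAAATTTT, on both strands, in the 250 bases before each start codon. The PAC core stood in 58 of the 70 promoters (82.9%), against 16.5% of the 5618 promoters of protein-coding genes searched. The RRPE core stood in 47 (67.1%), against 9.02% of all promoters, and both words stood in 40 (57.1%), against 4.34%. A longer PAC word, GCGATGAG, which contains the core, stood in 30 (42.9%), against 4.09%. These shares are not particular to the 70 named genes. Of 102 further assembly genes outside the name rule, 85.3% held the PAC core and 74.5% the RRPE core. Both words stood in 65.7% of the 102 and the longer word in 49%. The PAC core nearest to the gene lay at a median of 113.5 bases before the start codon, with a range of 38 to 222 bases, and the nearest RRPE core at a median of 129 bases.

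The words were not spread evenly over the roles. All 7 snoRNP promoters held the PAC core and 6 held the RRPE core, but none held the longer PAC word, which stood in 29 of the 56 promoters of the genes that are neither snoRNP nor exosome genes (51.8%). Among the 7 exosome genes 3 held the PAC core, 1 the RRPE core and 0 both. The promoters of 5 genes on which the results below turn are printed from 250 to 51 bases before the start codon, from the RefSeq R64 genome, in the direction of transcription, with PAC and RRPE cores in capitals. NOP58 and GAR1 stand for the snoRNP genes, which as a group fell most in the double mutants, and UTP6 for the processome. RRP3 and RRP46 were higher in some mutants. All 5 genes lie on the minus strand, and their windows are chrXV:898411-898610 (NOP58), chrVIII:283349-283548 (GAR1), chrIV:1358953-1359152 (UTP6), chrVIII:229088-229287 (RRP3) and chrVII:676393-676592 (RRP46).
NOP58: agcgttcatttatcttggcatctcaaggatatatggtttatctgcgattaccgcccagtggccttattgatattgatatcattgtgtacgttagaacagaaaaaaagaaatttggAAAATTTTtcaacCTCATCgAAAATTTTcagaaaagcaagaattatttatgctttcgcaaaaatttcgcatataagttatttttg
GAR1: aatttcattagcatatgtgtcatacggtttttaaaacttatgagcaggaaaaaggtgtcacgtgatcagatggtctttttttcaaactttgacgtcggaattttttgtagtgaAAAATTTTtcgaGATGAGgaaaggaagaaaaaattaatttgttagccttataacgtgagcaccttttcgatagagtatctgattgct
UTP6: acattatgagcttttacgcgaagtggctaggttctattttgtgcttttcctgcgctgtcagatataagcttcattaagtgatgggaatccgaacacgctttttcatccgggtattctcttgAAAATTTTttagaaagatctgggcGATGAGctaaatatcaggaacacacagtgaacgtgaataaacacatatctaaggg
RRP3: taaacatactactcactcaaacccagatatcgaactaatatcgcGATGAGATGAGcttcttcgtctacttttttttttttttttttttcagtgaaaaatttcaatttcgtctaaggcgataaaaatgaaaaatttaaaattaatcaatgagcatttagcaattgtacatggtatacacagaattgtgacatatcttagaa
RRP46: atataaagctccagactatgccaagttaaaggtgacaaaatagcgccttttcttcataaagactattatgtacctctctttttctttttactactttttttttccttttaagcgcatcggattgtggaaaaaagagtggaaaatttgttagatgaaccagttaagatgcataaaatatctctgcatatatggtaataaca
NOP58 held RRPE cores on either side of a PAC core that reads CTCATC, its reverse strand form, while GAR1 and UTP6 held an RRPE core followed by a PAC core. RRP3 held overlapping PAC cores and no RRPE core, and RRP46 held neither word. A match is a description of the sequence, and no match says only that these letters are not in this window.

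**Figure D1:**
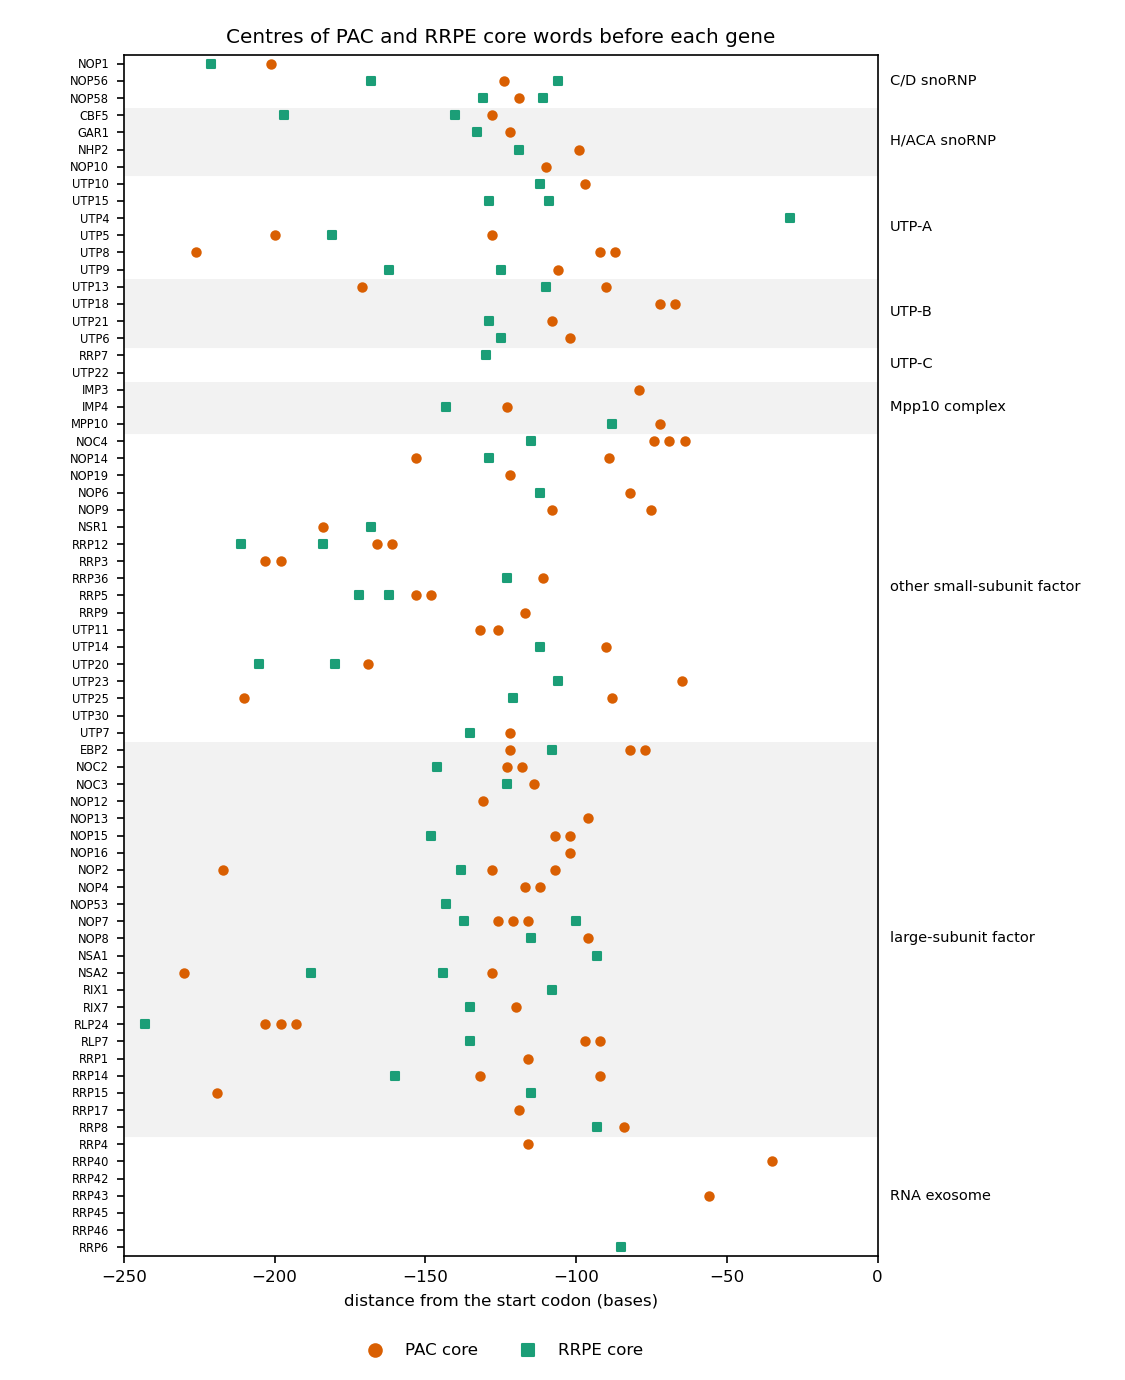
Position of PAC core and RRPE core words in the promoters of the 70 assembly genes, grouped by role, in bases before the start codon. Most genes hold a PAC core, at a median of 113.5 bases, and most hold an RRPE core, while the exosome genes hold few of either.

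Against WT, most assembly genes had fold changes below 0 in spt6-R,KK, rpb1-TPY,FSP, spt6-R and rpb1-FSP, and the number called differed. In spt6-R,KK 39 of the 70 genes were called lower and 0 higher, against 17.5% of all genes lower and 19.3% higher, and 67 of the 70 fold changes lay below 0. In rpb1-TPY,FSP 22 were called lower and 2 higher, against 16.4% of all genes lower and 18.8% higher, and 58 lay below 0. In spt6-R 28 were called lower and 0 higher, against 4.47% of all genes lower and 4.02% higher, and 69 lay below 0. The median log2 fold change of the 70 genes was -0.53 in spt6-R, -0.49 in spt6-R,KK and -0.33 in rpb1-TPY,FSP, where the medians of all genes were -0.02, 0.02 and 0.06. The 3 comparisons share the WT libraries.

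The other single mutants gave fewer calls. In rpb1-FSP 69 of the 70 genes lay below 0 with a median of -0.37, but 3 were called lower (NOP58, NHP2 and NOP10) and 0 higher, against 1.46% of all genes lower and 0.89% higher. At an unadjusted p under 0.05 in edgeR there were 31 of the 70, against 924 of all 5618 genes. In spt6-KK 8 were called lower and 2 higher, against 6.94% and 6.35% of all genes, around a median of -0.09. In rpb1-TPY no assembly gene was called by edgeR or by DESeq2, against 0% of all genes called lower and 0.0534% called higher in edgeR. There 0 of the 70 had an unadjusted p under 0.05 in edgeR, against 88 of all 5618 genes. The median of the 70 genes in rpb1-TPY was -0.04. A gene not called in rpb1-TPY is not shown to be unchanged: the SE of a log2 fold change was 0.12 for NOP58 and 0.19 for UTP6.

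**Figure D2:**
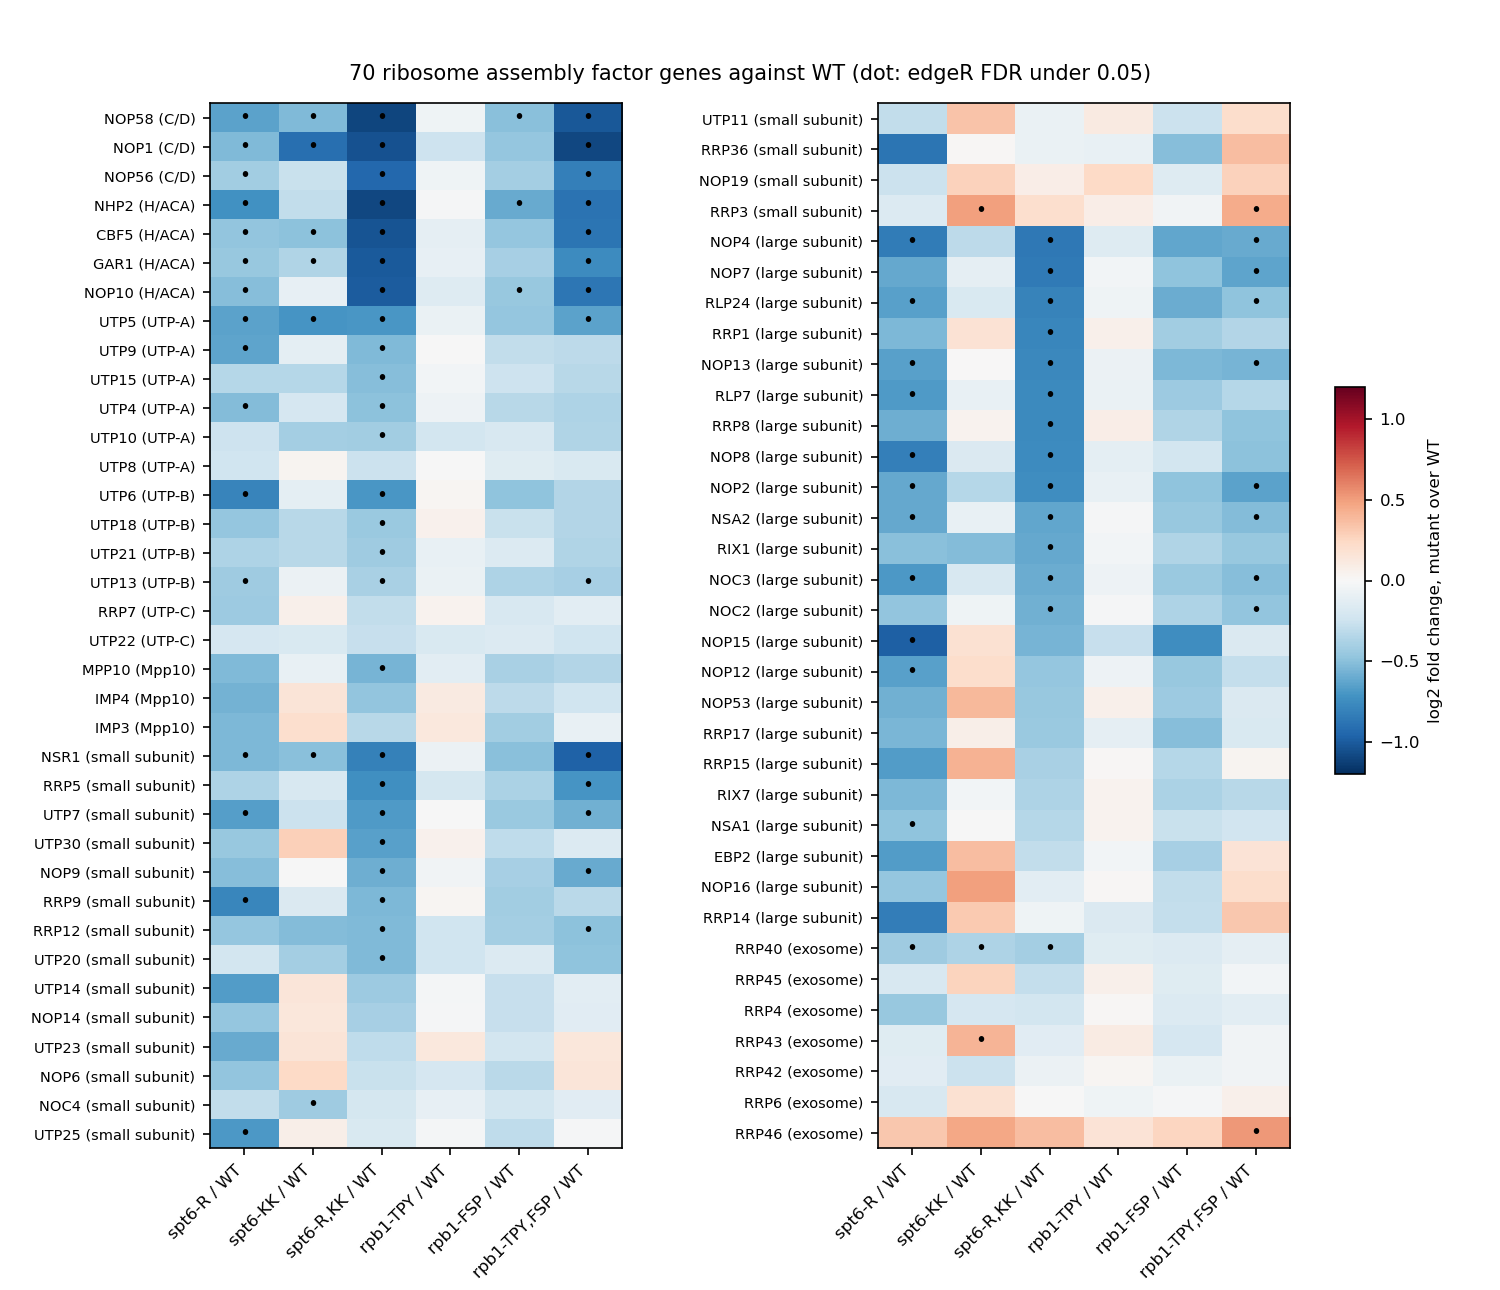
Log2 fold change of each of the 70 genes in each mutant over WT, with genes in rows by role and a dot where edgeR's false discovery rate was under 0.05. The snoRNP rows are the darkest in spt6-R,KK, and in rpb1-TPY,FSP the NSR1 row is as dark as several of them. The rpb1-TPY column is pale throughout, and RRP3 and RRP46 are above 0 in several mutants.

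The libraries of each strain bear on how far these counts go. All 3 libraries lay below all 3 WT libraries for 54 of the 70 genes in spt6-R (19.6% of all genes did so), 38 in spt6-R,KK (22.5%), 27 in rpb1-FSP (14.5%), 19 in rpb1-TPY,FSP (22.1%), 17 in spt6-KK (17.4%) and 0 in rpb1-TPY (2.51%). All 3 lay above all WT libraries for 1 gene in spt6-R (17.4% of all genes), 0 in spt6-R,KK (23.4%), 0 in rpb1-FSP (13%), 2 in rpb1-TPY,FSP (26.2%), 3 in spt6-KK (18.9%) and 0 in rpb1-TPY (3.24%). The 28 calls in spt6-R depended on single libraries: without WT library 1 there were 42, without WT library 2 there were 6 and without WT library 3 there were 3, while without spt6-R library 1 there were 19, without spt6-R library 2 there were 6 and without spt6-R library 3 there were 4. The calls over all genes moved too: 4.98%, 0.904%, 1.4%, 3.76%, 1.01% and 1.05% were called lower in these fits, in that order. The median of the 70 genes in spt6-R stayed between -0.66 and -0.42 in them. NHP2, NOP58 and RRP9 were called in spt6-R whichever library was left out. The 22 lower calls in rpb1-TPY,FSP became 14 without WT library 2 or without rpb1-TPY,FSP library 2, 12 without WT library 3 and 33 without rpb1-TPY,FSP library 1. Of all genes 12.6%, 14.3%, 13.3% and 16.6% were then called lower. Without rpb1-TPY,FSP library 1 the median of the 70 genes in rpb1-TPY,FSP was -0.47. The 39 calls in spt6-R,KK stayed within 1.5 times of that count whichever library was left out, between 26 and 44, and 23 of the 39 genes were called each time. The share of all genes called lower there ran from 13.5% to 17.1%. The 3 calls in rpb1-FSP were lost without WT library 2 or 3 and without rpb1-FSP library 1, 2 or 3. In those fits 0.425% to 0.851% of all genes were called lower, and the median of the 70 genes lay between -0.405 and -0.257.

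The 8 lower calls in spt6-KK became 3 without WT library 2 or WT library 3 and 4 without spt6-KK library 2 or 3. Of all genes 2.59% to 3.97% were called lower in spt6-KK in those fits. Its 2 higher calls became 5 without spt6-KK library 1 (9.17% of all genes were called higher there). They became 0 without WT library 1, 2 or 3 and without spt6-KK library 2 or 3 (2.16% to 4.56% of all genes). NOP1, NOP58 and UTP5 were called lower in spt6-KK whichever library was left out. Scaling by library totals in place of TMM raised the median of all genes to 0.25 in spt6-KK, 0.21 in spt6-R,KK and 0.32 in rpb1-TPY,FSP, and left 2, 18 and 8 lower calls among the assembly genes. Of all genes 3.04%, 8.95% and 7.37% were then called lower. The median of the 70 genes in rpb1-TPY,FSP was then -0.06. Relative to the median of all genes, the assembly genes' median in spt6-R,KK then lay at -0.50, that in rpb1-TPY,FSP at -0.39 and that in spt6-KK at -0.14, where its own value turned to 0.11.

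The C/D snoRNP genes fell in both double mutants. NOP58 (YOR310C, R64 chromosome XV 896825 to 898360) encodes a scaffold protein of the C/D particle. Its level was 285, 247 and 243 CPM in the spt6-R,KK libraries and 318, 276 and 226 CPM in the rpb1-TPY,FSP libraries, against 486, 591 and 588 CPM in the WT libraries. Each library of both double mutants lay below each WT library. The log2 fold change was -1.10 ± 0.12 (SE) in spt6-R,KK (adjusted p = 7.35e-07, edgeR) and -1.02 ± 0.12 in rpb1-TPY,FSP (adjusted p = 1.81e-06, edgeR). In the single mutants NOP58 stood at 356, 366 and 346 CPM in spt6-R, 354, 394 and 407 CPM in spt6-KK, 480, 535 and 586 CPM in rpb1-TPY, and 381, 394 and 398 CPM in rpb1-FSP. In TMM-scaled CPM the rpb1-FSP, spt6-R and spt6-KK libraries lay between those of the double mutants and those of WT with no overlap. The rpb1-TPY libraries overlapped WT. NOP58 was called lower in spt6-R (-0.64 ± 0.12), spt6-KK (-0.53 ± 0.12) and rpb1-FSP (-0.50 ± 0.12) by edgeR.

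NOP1, yeast fibrillarin and the methyltransferase of the C/D particle, was the assembly gene with the highest level per length in WT, at 1150 CPM per kilobase of coding sequence. It stood at 619, 600 and 429 CPM in spt6-R,KK and 507, 613 and 470 CPM in rpb1-TPY,FSP, against 989, 1167 and 1239 CPM in WT. Again no library of a double mutant reached a WT library. The log2 fold change was -1.04 ± 0.14 in spt6-R,KK (adjusted p = 7.08e-06, edgeR) and -1.09 ± 0.14 in rpb1-TPY,FSP (adjusted p = 3.92e-06, edgeR). NOP1 also had the largest fall of the 70 genes in spt6-KK, with 563, 615 and 635 CPM and a log2 fold change of -0.90 ± 0.14 (adjusted p = 0.000367, edgeR). NOP56, the partner of NOP58 in the particle, averaged 294 ± 21.3 CPM in spt6-R,KK and 320 ± 63.8 CPM in rpb1-TPY,FSP, against 565 ± 49.6 CPM in WT (SD, n = 3 each), and was called lower in both.

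The H/ACA snoRNP genes fell as well. NHP2 (YDL208W, R64 chromosome IV 87512 to 87982), an RNA-binding protein of the particle, stood at 58.5, 74.1 and 72.1 CPM in spt6-R,KK and 94.7, 77.4 and 64.4 CPM in rpb1-TPY,FSP, against 136, 149 and 151 CPM in WT. No library of either double mutant reached a WT library. Its log2 fold change was -1.09 ± 0.15 in spt6-R,KK (adjusted p = 1.28e-05, edgeR) and -0.88 ± 0.15 in rpb1-TPY,FSP (adjusted p = 0.000122, edgeR). NHP2 was also called lower in spt6-R (-0.73 ± 0.15) and rpb1-FSP (-0.60 ± 0.15) by edgeR. GAR1, whose promoter is printed above, stood at 104, 104 and 108 CPM in spt6-R,KK and 124, 130 and 121 CPM in rpb1-TPY,FSP, against 183, 224 and 226 CPM in WT. Its fall was -1.01 ± 0.11 in spt6-R,KK (adjusted p = 5.48e-07, edgeR) and -0.76 ± 0.11 in rpb1-TPY,FSP (adjusted p = 1.59e-05, edgeR).

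CBF5, the pseudouridine synthase of the H/ACA particle, averaged 234 ± 20.6 CPM in spt6-R,KK and 261 ± 37.4 CPM in rpb1-TPY,FSP, against 479 ± 49.6 CPM in WT (SD, n = 3 each). NOP10, the smallest protein of the particle, averaged 46.4 ± 4.10 CPM in spt6-R,KK and 50.9 ± 5.39 CPM in rpb1-TPY,FSP, against 93.1 ± 7.81 CPM in WT. Both were called lower in both double mutants and in spt6-R. All 7 snoRNP genes were called lower in spt6-R,KK, rpb1-TPY,FSP and spt6-R, with medians of -1.03, -0.88 and -0.51, where 17.5%, 16.4% and 4.47% of all genes were called lower. All 7 calls in each double mutant held whichever library was left out, and also when libraries were scaled by their totals. Of the 7 genes 4 were called lower in spt6-KK (NOP1, NOP58, CBF5 and GAR1), 3 in rpb1-FSP and 0 in rpb1-TPY, against 6.94%, 1.46% and 0% of all genes.

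**Figure D3:**
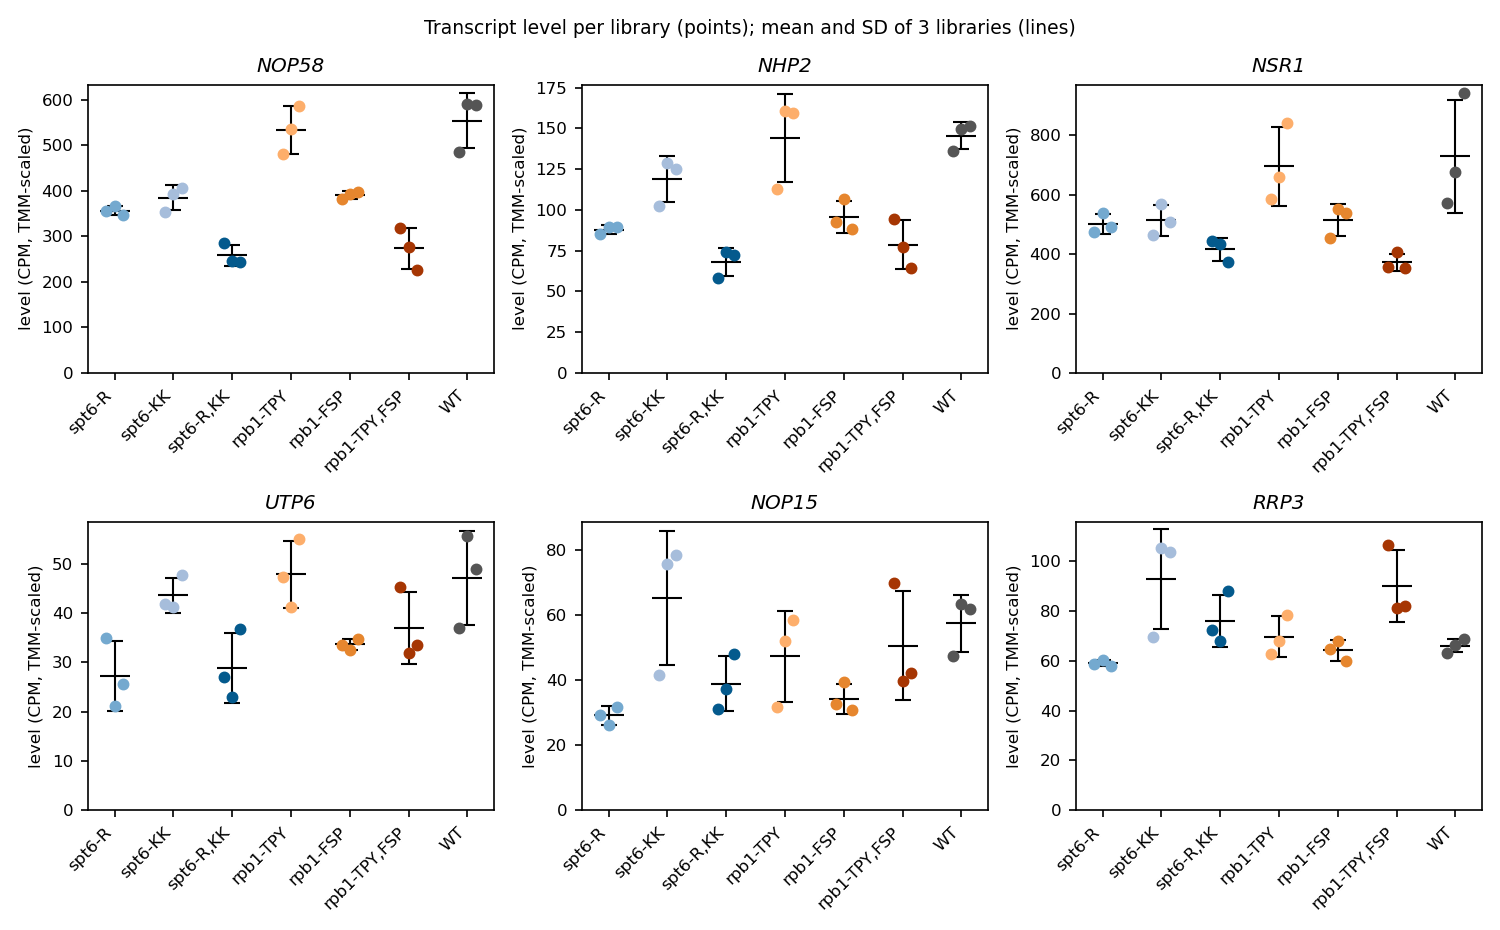
CPM of NOP58, NHP2, NSR1, UTP6, NOP15 and RRP3 in each library, with points for libraries and lines for the mean and SD of the 3 libraries of each strain, mutants to the left of WT. NOP58, NHP2 and NSR1 lie below every WT library in both double mutants, while RRP3 lies above every WT library in rpb1-TPY,FSP and spt6-KK.

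Few assembly genes differed between a double mutant and the spt6-R or rpb1-FSP single mutant, and most of those called lower were snoRNP genes. In spt6-R,KK over spt6-R 6 of the 70 genes were called lower and 0 higher, near the 7.28% and 6.82% of all genes, and the 6 were NOP1, NOP56, NOP58, CBF5, GAR1 and NOP10. In rpb1-TPY,FSP over rpb1-FSP 7 were called lower and 2 higher, near the 8.29% and 8.33% of all genes, and the 7 were the same 6 and NSR1. Counts so near the share of all genes are no result about the 70 genes as a set. These comparisons share no library. The fold changes in spt6-R,KK over spt6-R were -0.56 ± 0.13 for CBF5, -0.55 ± 0.11 for GAR1, -0.53 ± 0.12 for NOP56, -0.51 ± 0.14 for NOP1, -0.49 ± 0.12 for NOP10 and -0.46 ± 0.12 for NOP58, with adjusted p from 0.00168 to 0.0155 in edgeR. NHP2 was not called in either, with -0.37 ± 0.15 in spt6-R,KK over spt6-R (adjusted p = 0.112, edgeR) and -0.28 ± 0.15 in rpb1-TPY,FSP over rpb1-FSP (adjusted p = 0.215, edgeR).

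Among the 56 genes that are neither snoRNP nor exosome genes, 0 were called in spt6-R,KK over spt6-R, and their median was 0.05 against -0.51 for the 7 snoRNP genes. In rpb1-TPY,FSP over rpb1-FSP 1 was called lower and 2 higher among the 56, with a median of 0.04 against -0.42 for the snoRNP genes. The difference between these sets was not tested. RRP9, the U3 snoRNP protein counted among the 56, stood at 0.24 ± 0.15 in spt6-R,KK over spt6-R and 0.09 ± 0.14 in rpb1-TPY,FSP over rpb1-FSP, with no call. Leaving out spt6-R library 2 or spt6-R,KK library 3 took the median of the 56 genes in spt6-R,KK over spt6-R to -0.01 and -0.03, and leaving out rpb1-TPY,FSP library 1 took that in rpb1-TPY,FSP over rpb1-FSP to -0.12. Scaling by library totals moved it to 0.21 and 0.20, with all genes at a median of 0.20 in each comparison, and left 3 and 1 of the snoRNP genes called. In spt6-R,KK over spt6-R 5 of the 6 calls held whichever library was left out. The 7 lower calls in rpb1-TPY,FSP over rpb1-FSP became 2 without rpb1-FSP library 2 or rpb1-TPY,FSP library 3 and 3 without rpb1-FSP library 3, and NOP1 and NOP58 were called each time. Of all genes 5.57% to 6.55% were called lower in those fits.

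**Figure D4:**
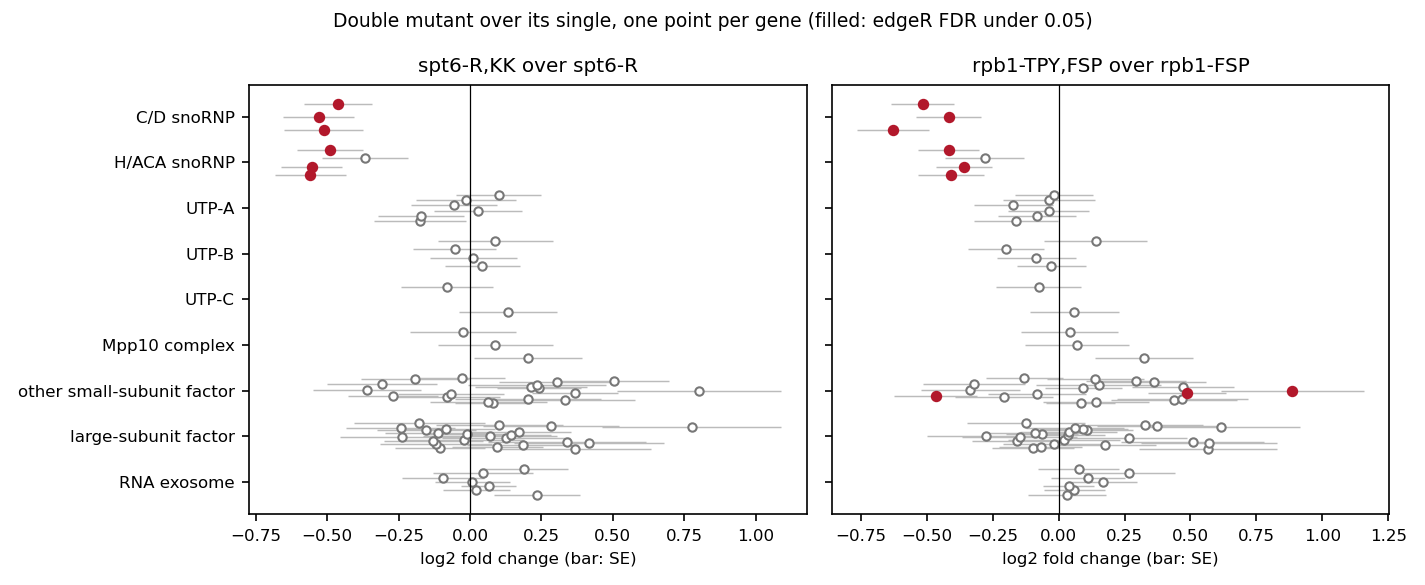
Log2 fold change of each of the 70 genes in spt6-R,KK over spt6-R and in rpb1-TPY,FSP over rpb1-FSP, by role, with filled points where edgeR's false discovery rate was under 0.05. The 7 core snoRNP genes lie below 0 in both comparisons, while the other roles, RRP9 among them, scatter around 0.

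Against the other single mutant of each protein more genes fell. In spt6-R,KK over spt6-KK 28 of the 70 genes were called lower and 0 higher, against 13.8% and 12.8% of all genes, with a median of -0.46 and 67 genes below 0. The count became 14 without spt6-KK library 2, spt6-KK library 3 or spt6-R,KK library 1, and 18 without spt6-R,KK library 2. In those fits 7.55% to 9.52% of all genes were called lower. RRP1, a large-subunit factor, had the largest fall there at -0.96, and NOP1 stood at -0.14 ± 0.14 without being called. In rpb1-TPY,FSP over rpb1-TPY 18 were called lower and 0 higher, against 16.3% and 17.6% of all genes, with a median of -0.27. That count became 10 without rpb1-TPY library 3, 29 without rpb1-TPY,FSP library 1 and 11 without rpb1-TPY,FSP library 3, against 13.5%, 16.3% and 12.8% of all genes. Without rpb1-TPY library 3, 2 of the 70 genes were called higher, against 13.5% of all genes.

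The order of the strains by summed level differed between roles. The 7 snoRNP genes summed to 1688, 1581 and 1396 CPM in the spt6-R,KK libraries and 1773, 1731 and 1413 CPM in the rpb1-TPY,FSP libraries, against 2812, 3309 and 3419 CPM in the WT libraries. They summed to 2117, 2289 and 2240 CPM in spt6-R, 1989, 2263 and 2259 CPM in spt6-KK, 2249, 2298 and 2372 CPM in rpb1-FSP, and 2720, 2860 and 3126 CPM in rpb1-TPY. In these TMM-scaled sums no double-mutant library reached one of rpb1-FSP, spt6-R or spt6-KK, and none of those reached WT. The lower of these gaps depended on the scaling. As a percent of all counts in the library, the snoRNP genes made up 0.214 in rpb1-TPY,FSP library 1. That lay above spt6-R libraries 1, 2 and 3, at 0.206, 0.213 and 0.206, and above spt6-KK library 1, at 0.204. The 56 genes that are neither snoRNP nor exosome genes summed to 5667 ± 367 CPM in spt6-R,KK, 6106 ± 920 CPM in rpb1-TPY,FSP and 6060 ± 76.5 CPM in spt6-R, against 8238 ± 1350 CPM in WT (SD, n = 3 each). The range over libraries was 5479 to 7162 CPM in rpb1-TPY,FSP and 6776 to 9438 CPM in WT, so these overlapped. The 7 exosome genes summed to 354 to 464 CPM over all 21 libraries, with means of 386 ± 4.82 CPM in spt6-R,KK and 419 ± 23.4 CPM in rpb1-TPY,FSP, against 418 ± 37.9 CPM in WT.

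**Figure D5:**
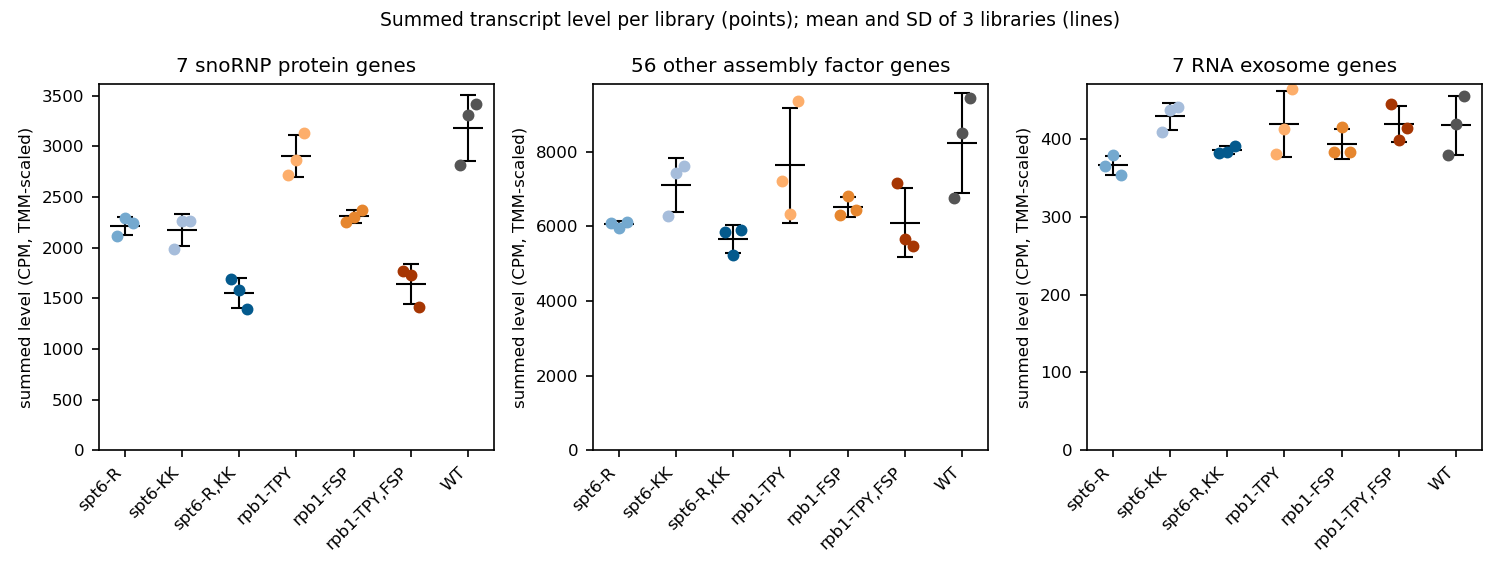
Summed CPM per library of the snoRNP genes, of the exosome genes and of the other assembly genes in each strain, mutants to the left of WT, with points for libraries and lines for the mean and SD of 3 libraries. With TMM scaling the snoRNP sums do not overlap between the double mutants, the rpb1-FSP, spt6-R and spt6-KK strains, and WT. As a percent of library counts, not drawn here, rpb1-TPY,FSP library 1 lay above every spt6-R library. The exosome sums stay between 354 and 464 CPM.

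The snoRNP genes and NSR1 were also the assembly genes with the highest levels. In WT these 8 ranked first by CPM per kilobase, at 309 (NHP2) to 1150 (NOP1), and the next was RLP24, a large-subunit factor related to a ribosomal protein, at 216. Across the 70 genes the WT level per kilobase and the log2 fold change had a Spearman correlation of -0.68 in spt6-R,KK over spt6-R and -0.62 in rpb1-TPY,FSP over rpb1-FSP. This is a description across genes, which share libraries and depth, and level and role cannot be told apart in it.

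Of the 33 genes of the small-subunit factors, 18 were called lower in spt6-R,KK, 7 lower and 1 higher in rpb1-TPY,FSP, 9 lower in spt6-R, 3 lower and 1 higher in spt6-KK and 0 in rpb1-FSP. Beside the share of all genes called lower, 17.5% in spt6-R,KK, 4.47% in spt6-R, 16.4% in rpb1-TPY,FSP and 6.94% in spt6-KK, the counts in rpb1-TPY,FSP and spt6-KK are near the background. NSR1, a nucleolar protein related to nucleolin, stood at 443, 435 and 373 CPM in spt6-R,KK and 358, 406 and 354 CPM in rpb1-TPY,FSP, against 572, 677 and 942 CPM in WT. The WT libraries differed more among themselves than the mutant libraries, with no overlap between them. Its log2 fold change was -0.81 ± 0.16 in spt6-R,KK and -0.97 ± 0.16 in rpb1-TPY,FSP, and it was called in both by edgeR. RRP5, which acts in the assembly of both subunits, was called lower in spt6-R,KK (-0.73 ± 0.19) and rpb1-TPY,FSP (-0.71 ± 0.19).

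In the UTP-A module, which binds the nascent precursor before the rest of the processome, 5 of 6 genes were called lower in spt6-R,KK and 1 in rpb1-TPY,FSP. Of all genes 17.5% and 16.4% were called lower, so the count in rpb1-TPY,FSP is near the background. UTP5 had the largest fall of the module in both, at -0.70 in spt6-R,KK and -0.64 ± 0.15 in rpb1-TPY,FSP, and UTP8 the smallest, at -0.26 ± 0.17 and -0.18 ± 0.17, with no call. UTP5 stood at 91.5, 92.5 and 87.1 CPM in spt6-KK, against 123, 148 and 171 CPM in WT, and was the gene with the second largest fall in spt6-KK, at -0.71 ± 0.15 (adjusted p = 0.00466, edgeR). All 4 UTP-B genes were called lower in spt6-R,KK and UTP13 alone in rpb1-TPY,FSP, beside the same 17.5% and 16.4% of all genes. UTP6 stood at 26.94, 22.97 and 36.79 CPM in spt6-R,KK and 35.0, 21.0 and 25.5 CPM in spt6-R, against 36.85, 55.58 and 48.98 CPM in WT. The highest spt6-R,KK library lay just below the lowest WT library. Its log2 fold change was -0.70 in spt6-R,KK and -0.79 ± 0.20 in spt6-R (adjusted p = 0.0197, edgeR), while in rpb1-TPY,FSP it was -0.35 and not called.

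The UTP-C genes were not called in any mutant, with UTP22 at -0.28 ± 0.16 in spt6-R,KK and RRP7 at -0.30. Of the Mpp10 complex MPP10, its namesake scaffold, was called lower in spt6-R,KK at -0.56, and IMP3 and IMP4 in no mutant. Among the 18 further small-subunit factors 8 were called lower in spt6-R,KK, 5 lower and 1 higher in rpb1-TPY,FSP, and 4 lower in spt6-R. Of all genes 17.5% were lower in spt6-R,KK, 16.4% lower and 18.8% higher in rpb1-TPY,FSP, and 4.47% lower in spt6-R. UTP7, a processome protein, was called lower in spt6-R (-0.66 ± 0.15), spt6-R,KK (-0.68 ± 0.15) and rpb1-TPY,FSP (-0.58 ± 0.15). RRP9, the U3 snoRNP protein, was called lower in spt6-R (-0.78 ± 0.15) and spt6-R,KK (-0.54 ± 0.15), and stood at -0.32 ± 0.14 in rpb1-TPY,FSP without being called.

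RRP3, a DEAD-box RNA helicase needed for small-subunit cuts, went the other way in some strains. It stood at 107, 81.4 and 82.0 CPM in rpb1-TPY,FSP and 69.53, 105.4 and 103.7 CPM in spt6-KK, against 63.3, 66.3 and 68.8 CPM in WT. All libraries of these mutants lay above the WT libraries. RRP3 rose by 0.45 ± 0.15 on the log2 scale in rpb1-TPY,FSP (adjusted p = 0.0242, edgeR) and 0.49 ± 0.15 in spt6-KK (adjusted p = 0.0342, edgeR), and stood at 0.21 ± 0.15 in spt6-R,KK and -0.16 ± 0.15 in spt6-R with no call. The call in rpb1-TPY,FSP was lost without WT library 1, WT library 2 or rpb1-TPY,FSP library 1, and that in spt6-KK when spt6-KK library 2 or 3 or any WT library was left out. RRP36, a low-level processome factor, stood at 20.8, 11.1 and 11.7 CPM in rpb1-TPY,FSP, against 9.27, 7.87 and 6.76 CPM in rpb1-FSP, and was called higher in rpb1-TPY,FSP over rpb1-FSP by edgeR (0.89 ± 0.27, adjusted p = 0.0297), as was RRP3 (0.49 ± 0.15, adjusted p = 0.0287). Neither was called there without rpb1-TPY,FSP library 1, rpb1-FSP library 2 or rpb1-FSP library 3, and 1 of them without rpb1-FSP library 1.

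Of the 23 large-subunit factors, 13 were called lower in spt6-R,KK, 8 were in rpb1-TPY,FSP, 11 in spt6-R and 0 in spt6-KK, rpb1-FSP and rpb1-TPY. Of all genes 17.5% were called lower in spt6-R,KK, 4.47% in spt6-R and 16.4% in rpb1-TPY,FSP. Their medians were -0.59 in spt6-R,KK, -0.62 in spt6-R, -0.36 in rpb1-TPY,FSP, -0.44 in rpb1-FSP and -0.00 in spt6-KK. NOP4, an RNA-binding protein of early large-subunit particles, stood at 61.1, 61.4 and 68.1 CPM in spt6-R,KK and 68.5, 64.6 and 60.6 CPM in spt6-R, against 88.6, 118 and 140 CPM in WT. Neither strain overlapped WT, and NOP4 fell by 0.86 ± 0.21 on the log2 scale in spt6-R,KK and by 0.84 ± 0.21 in spt6-R. In rpb1-TPY,FSP its libraries stood at 103, 63.6 and 60.0 CPM, so that library 1 lay above WT library 1, and the fall was 0.61 ± 0.21 (adjusted p = 0.0298, edgeR).

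NOP7, the yeast pescadillo protein, was called lower in spt6-R,KK (-0.85 ± 0.22) and rpb1-TPY,FSP (-0.63 ± 0.22) and not in spt6-R (-0.61 ± 0.22). NOP2, a methyltransferase of the large-subunit RNA, was called lower in spt6-R (-0.62 ± 0.17), spt6-R,KK (-0.74 ± 0.17) and rpb1-TPY,FSP (-0.64 ± 0.17). NSA2, NOC3 and RLP24, which act on large-subunit precursors, were called lower in the same 3 strains. NOP15, a large-subunit RNA-binding protein, had the largest fall of the 70 genes in spt6-R, at -0.98 ± 0.26 (adjusted p = 0.0261, edgeR). NOP15 was called lower there in 8 of 14 alternative fits. It stood at 29.3, 26.3 and 31.9 CPM in spt6-R, against 47.4, 63.4 and 61.7 CPM in WT, with no overlap. In spt6-KK NOP15 stood at 41.6, 75.8 and 78.3 CPM and in rpb1-TPY,FSP at 69.99, 39.62 and 42.34 CPM, and both strains overlapped WT. RRP14 had the highest value of the 23 in both double mutants, at -0.06 ± 0.30 in spt6-R,KK and 0.33 ± 0.30 in rpb1-TPY,FSP, with no call.

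In both double mutants the exosome genes had the median closest to 0 of all the roles. RRP40, an RNA-binding cap subunit, was the one called lower in spt6-R,KK (-0.41 ± 0.12), spt6-R (-0.43 ± 0.12) and spt6-KK (-0.37 ± 0.12), and stood at -0.11 ± 0.12 in rpb1-TPY,FSP. RRP6, the nuclear exonuclease subunit, stood at -0.00 ± 0.15 in spt6-R,KK and 0.06 ± 0.15 in rpb1-TPY,FSP. RRP46, a ring subunit, stood at 42.8, 39.3 and 48.0 CPM in rpb1-TPY,FSP and 30.5, 44.4 and 42.1 CPM in spt6-R,KK, against 24.97, 32.34 and 33.71 CPM in WT. The rpb1-TPY,FSP libraries lay above all WT libraries and the spt6-R,KK libraries overlapped them. RRP46 rose by 0.52 ± 0.18 on the log2 scale in rpb1-TPY,FSP (adjusted p = 0.0263, edgeR) and stood at 0.37 ± 0.18 in spt6-R,KK with no call. The call was lost without WT library 1 or rpb1-TPY,FSP library 3. RRP43, another ring subunit, was called higher in spt6-KK (0.41 ± 0.13, adjusted p = 0.0404, edgeR), where it stood at 52.1, 68.9 and 68.7 CPM against 42.6, 48.4 and 51.9 CPM in WT, a call that was lost without any one WT library and without spt6-KK library 2 or 3. The median of the 7 genes was -0.13 in spt6-R,KK and -0.04 in rpb1-TPY,FSP, and it turned to 0.06 and 0.23 with scaling by library totals.

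The double mutants were compared with the sum of their single mutants on the log2 scale by an interaction term. No assembly gene was called in either interaction by edgeR or DESeq2, against 0.249% of all genes lower and 0.107% higher for spt6 and 1.87% lower and 1.32% higher for rpb1. At an unadjusted p under 0.05 in edgeR there were 6 of the 70 genes for spt6 and 3 for rpb1, against 840 and 939 of all 5618 genes. The rpb1 interaction of NOP58 was -0.46 ± 0.17 (adjusted p = 0.151, edgeR), the lowest of the 70. Without rpb1-TPY,FSP library 1, 1 of the 70 was called lower in the rpb1 interaction, against 2.11% of all genes. Between the double mutants, spt6-R,KK over rpb1-TPY,FSP, no gene of the 70 was called by edgeR or DESeq2 either, against 0% of all genes lower and 0.0356% higher. There 6 of the 70 had an unadjusted p under 0.05 in edgeR, against 198 of all 5618 genes. The median was -0.18 with 66 genes below 0. This median rested on library 1: it was -0.04 without rpb1-TPY,FSP library 1, and 0.002 without library 1 of both double mutants, a fit chosen after seeing the data. NOP1 stood at 0.05 ± 0.14 and NOP58 at -0.08 ± 0.12 there, and UTP30 had the lowest value at -0.48 ± 0.19 (adjusted p = 0.995, edgeR).

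The promoter words were set beside the fold changes. In spt6-R,KK 27 of the 40 genes with both words were called lower, with a median of -0.57, against 12 of the 30 without both, with a median of -0.37. In rpb1-TPY,FSP 18 of the 40 were called lower, against 4 of the 30, with medians of -0.43 and -0.18, and in spt6-R 20 against 8, with medians of -0.61 and -0.46. Among tested protein-coding genes on no assembly list, 135 held both words, and 37% of them were called lower in spt6-R,KK and 31.1% in rpb1-TPY,FSP, against 15.7% and 15.3% of the 5184 without both. Of the 379 with the RRPE core, whether or not they held PAC, 34.8% and 31.7% were called lower. Without the RRPE core the shares were 14.8% and 14.5%. Of the 765 with the PAC core 19.5% and 17.4% were called lower, against 15.7% and 15.5% without it. Exosome genes made up 7 of the 30 assembly genes without both words, so role and word cannot be told apart in the counts of assembly genes. No difference between genes with and without a word was tested.

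Some of the 70 genes lie next to another assembly gene. An adjacent assembly gene was annotated for 9 of the 70 (12.9%), against 5.75% of protein-coding genes on neither assembly list. NSA2 and LCP5 start in opposite directions with 301 bases between their start codons, and RRP3 and SSF1 with 297, so each pair shares its promoter words. The PAC cores of RRP3 lie 201 bases before its own start codon at the nearest and 97 bases before that of SSF1, a large-subunit factor. SSF1 was called lower in spt6-R,KK (-0.65 ± 0.21) and spt6-R (-0.78 ± 0.21), where RRP3 was not, and stood at -0.48 ± 0.20 in rpb1-TPY,FSP without a call, where RRP3 was called higher. LCP5, a small-subunit factor, stood at -0.62 ± 0.24 in spt6-R,KK with no call, beside -0.62 ± 0.14 for NSA2, which was called.

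A list of 102 further assembly genes outside the name rule, all tested, was counted in the same way. This list and that of the regulators below were chosen with earlier results of these data known. Their counts come from the same libraries, and counts with a library left out are not given for them. Of these 59 were called lower and 1 higher in spt6-R,KK with a median of -0.53, 40 lower and 1 higher in rpb1-TPY,FSP with a median of -0.37, and 39 lower and 0 higher in spt6-R with a median of -0.52. In spt6-KK 12 were lower and 1 higher, in rpb1-FSP 2 lower and in rpb1-TPY 0 called. Of all genes 17.5% were called lower and 19.3% higher in spt6-R,KK, 16.4% and 18.8% in rpb1-TPY,FSP, 4.47% and 4.02% in spt6-R, 6.94% and 6.35% in spt6-KK and 1.46% and 0.89% in rpb1-FSP, so the count of calls in rpb1-FSP is near the background. The median of the 102 genes in rpb1-FSP was nonetheless -0.37. There 48 of the 102 had an unadjusted p under 0.05 in edgeR, against 924 of all 5618 genes. HMO1, a chromatin protein of the ribosomal RNA genes, fell by 1.19 ± 0.13 on the log2 scale in spt6-R,KK and by 1.21 ± 0.13 in rpb1-TPY,FSP. SRP40, a nucleolar chaperone of snoRNPs, fell by 1.13 ± 0.13 in spt6-R,KK and by 0.99 ± 0.13 in rpb1-TPY,FSP, and both genes were also called lower in spt6-R,KK over spt6-R and in rpb1-TPY,FSP over rpb1-FSP. SNU13, the C/D core protein that the name rule leaves out and that was singled out after its values were seen, was called lower in spt6-R,KK over spt6-R at -0.48 ± 0.13 and was not called in rpb1-TPY,FSP over rpb1-FSP. FAL1, a DEAD-box helicase of the small subunit like RRP3, rose by 1.10 ± 0.29 in spt6-R,KK, by 1.34 ± 0.28 in rpb1-TPY,FSP and by 1.23 ± 0.29 in spt6-KK.

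Of 15 regulators of assembly genes 2 were called lower and 2 higher in spt6-R,KK, 1 lower and 1 higher in rpb1-TPY,FSP, 1 lower and 1 higher in spt6-R, and 0 in spt6-KK, rpb1-TPY and rpb1-FSP. With 17.5% of all genes lower and 19.3% higher in spt6-R,KK, and 16.4% and 18.8% in rpb1-TPY,FSP, the counts in the double mutants do not exceed the background. DOT6, a repressor that binds the PAC motif, was called higher in spt6-R,KK (0.61 ± 0.19) and spt6-R (0.66 ± 0.19), and its relative TOD6 was called lower in spt6-R (-0.83 ± 0.21). CRF1, a corepressor known from ribosomal protein genes, was called higher in spt6-R,KK (1.34 ± 0.36) and rpb1-TPY,FSP (1.39 ± 0.36). SIN3, a subunit of a histone deacetylase complex, was called lower in spt6-R,KK (-0.33 ± 0.12) and rpb1-TPY,FSP (-0.35 ± 0.12), and ABF1, a general regulatory factor that binds many promoters, in spt6-R,KK (-0.54 ± 0.19). The part of these genes in the levels of the 70 was not tested.

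In the authors' deposited table, made with DESeq2 from sense counts over the middle of each gene, the same 70 genes had 37 lower and 0 higher calls in spt6-R,KK, 22 lower and 2 higher in rpb1-TPY,FSP and 30 lower and 0 higher in spt6-R. Of all genes with an adjusted p in the authors' deposited table, 16.4% were lower and 17.7% higher in spt6-R,KK, 16.5% and 16% in rpb1-TPY,FSP, and 5.86% and 4.83% in spt6-R. The authors' deposited table gave 10 lower and 2 higher in spt6-KK, 8 lower and 0 higher in rpb1-FSP and 0 in rpb1-TPY, against 9.83% and 6.44% of all genes in spt6-KK, 4.3% and 2.12% in rpb1-FSP, and 0.0509% each way in rpb1-TPY.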

How the data were processed

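Total RNA depleted of ribosomal RNA gave strand-specific paired-end reads of 50 bases, per the labels. Per the submitters' processing notes, reads were trimmed with cutadapt 1.16, aligned to R64 (sacCer3) with STAR 2.6.1b and counted with featureCounts 1.6.3 of Subread, and strains were compared with DESeq2 1.22.2. The deposited tables hold raw read counts, per full gene (5823 genes; strand handling is not given in the sources used here) and from the sense strand over the central 70% of each gene. Log2 fold changes and adjusted p-values computed by the authors from the mid-gene counts are also deposited. Depth was 4860861 to 7803152 full-gene reads per library, which limits the precision of the lowest genes.

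Full-gene counts of all 21 libraries entered 1 edgeR 4.0.16 model (R 4.3.3) with strain as its only term, TMM scaling, filterByExpr (205 genes left out) and the quasi-likelihood test. The common biological coefficient of variation was 0.154. Summed levels add CPM, and per-kilobase levels divide by coding length. The script was tested on simulated data. Promoter words were read from the RefSeq R64 genome. Alternatives were other scalings, no filter, mid-gene counts, a replicate block, DESeq2 1.42.0 and leaving out each library. The members, lists and tests were chosen with earlier results of these data known. Any member could be named, with the 10 largest and 5 smallest falls per double mutant, every higher call, and up to 5 called genes each way elsewhere.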

Additional observations from a re-analysis of the deposited data

How the results depend on the processing

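Values are counts of the 70 genes called lower unless stated. A percent in brackets is the share of all genes called in the same direction by that fit. Library totals in place of TMM gave 14 in spt6-R (2.55%), 2 in spt6-KK (3.04%), 18 in spt6-R,KK (8.95%), 0 in rpb1-FSP (0.926%) and 8 in rpb1-TPY,FSP (7.37%). They also gave 8 in rpb1-TPY,FSP over rpb1-TPY (8.19%), 1 in rpb1-TPY,FSP over rpb1-FSP (4.15%) and 3 in spt6-R,KK over spt6-R (4.09%). Called higher with library totals were 1 in spt6-R,KK (29.1%), 2 in spt6-R,KK over spt6-R (13%) and 2 in rpb1-TPY,FSP over rpb1-TPY (27.1%). TMM without ribosomal and assembly genes gave 5 in rpb1-FSP (1.64%) and 1 higher in spt6-KK (5.3%). Fits with only the strains compared gave 13 in rpb1-FSP (4.92%), 16 in spt6-R,KK over spt6-KK (6%) and 11 in rpb1-TPY,FSP over rpb1-TPY (11%). In these fits 0 were higher in spt6-KK (7.11%), 1 in spt6-R,KK over spt6-R (3.32%) and 1 in rpb1-TPY,FSP over rpb1-FSP (6.35%). DESeq2 gave 10 in rpb1-FSP (2.8%) and 1 higher in spt6-R,KK over spt6-R (6.68%). Causes were not tested.

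Leaving out 1 library gave 3 to 42 in spt6-R, 3 to 10 (0 to 5 higher) in spt6-KK, 26 to 44 (0 to 1) in spt6-R,KK, 0 to 4 in rpb1-FSP, 12 to 33 (0 to 2) in rpb1-TPY,FSP, then 5 to 6 in spt6-R,KK over spt6-R, 14 to 38 in spt6-R,KK over spt6-KK, 10 to 29 (0 to 2) in rpb1-TPY,FSP over rpb1-TPY, 2 to 6 (0 to 2) in rpb1-TPY,FSP over rpb1-FSP and 0 to 1 in the rpb1 interaction. Leaving out library 1 of both double mutants, an alternative chosen after seeing the data, gave 34 lower (17.9%) and 1 higher (19.5%) in rpb1-TPY,FSP and 1 higher in spt6-R,KK (19.5%). It gave 3 higher in spt6-R,KK over spt6-R (8.47%), 18 in spt6-R,KK over spt6-KK (10.7%) and 30 in rpb1-TPY,FSP over rpb1-TPY (17.9%). In rpb1-TPY,FSP over rpb1-FSP 0 were higher (10.2%), and 2 were lower in the rpb1 interaction (3.12%).

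The labels do not say what a replicate number marks. Deviations of same-number libraries correlated at a median of 0.125 (-0.416 to 0.485, with 39 of 63 pairs over 0.1), against -0.0475 for different numbers, and 18 of 21 libraries correlated best with their own number, a hint of pairing from the data that not every pair showed. The replicate block gave 5 in rpb1-FSP (1.87%), 1 higher in spt6-R,KK (20.5%) and 1 higher in rpb1-TPY,FSP over rpb1-TPY (19.4%). With the block, other counts of calls stayed within 1.5 times. No called gene changed direction, but the median of the 70 genes in spt6-KK turned to 0.109 with library totals. Mid-gene counts, RLE size factors and no filter moved no count by over 1.5 times.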
